A study of Mus musculus with 2 samples.

Results

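The genes described here are grouped as germline genes sensitive to DNA methylation: *Xlr3a*, *Xlr3c*, *Xlr4a*, *Efhc2*, *Khdc3*, *Dazl*, *Sycp3*, *Mael* and *Rhox5*. They were chosen by name, with earlier results of these data in view, and all 9 of them were found among the 31053 genes of both count matrices. The study asked what the loss of SMAD1 and SMAD5, the transcription factors that carry bone morphogenetic protein (BMP) signals, does to mouse embryonic stem cells (mESCs). Single-cell libraries were made from E14 cells, a feeder-free mESC line, either wild-type (WT) or *Smad1/5* double knockout (S1/5 dKO) made with CRISPR-Cas9, and both were grown on gelatin in medium with 15% serum and 1000 U/ml of the cytokine LIF. Each condition had 1 library, and which of the S1/5 dKO lines it came from is not stated. With 1 library per condition no test between them was possible, and the intervals given are exact 95% intervals of counting error that say nothing of the spread between cultures.

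DNA methylation itself was not measured in these files, so the name of the group rests on what is known of the genes. In the germ line and the early embryo, methyl groups on CpG dinucleotides are erased and later restored, and many germline genes are silenced in body cells by methylation of their promoters. In mESCs a part of them is also held silent by a Polycomb complex that contains PCGF6, L3MBTL2, MGA, MAX and E2F6. Loss of methylation in mESCs is known to release such genes, while single genes differ in how much they need it.

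A barcode was taken as a cell if it had 1000 or more detected genes and no more than 5% of its UMIs (unique molecular identifiers, each standing for 1 captured mRNA molecule) from mitochondrial genes. There were 2236 such barcodes in WT, with 95965242 UMIs in all, and 2910 in the other library, with 109020533, and the medians were 38662 and 34548.5 UMIs. Levels are given as CPM, the UMIs of a gene summed over cells and scaled so that all genes sum to 1e+06. *Smad1* was lower in the library labelled S1/5 dKO (1000 UMIs, 9.17 CPM, against 1285 UMIs, 13.4 CPM, in WT), but *Smad5* was higher (991 UMIs, 9.09 CPM, against 581 UMIs, 6.05 CPM). The 147 genes of chromosome 8 from *Borcs8* to *Smad1* were lower together too, at 7860 CPM against 11368 in WT. The lower level was thus not particular to *Smad1*. *Smad5* mRNA thus went against the label, so the sample is called the library labelled S1/5 dKO throughout, and a 3′ count need not show a small edit. *Id1*, a target of BMP signals, was lower in that library, at 161 CPM against 323 in WT. So were *Id2* (16.8 against 57.1) and *Id3* (61.5 against 103). No cell barcode was shared by the libraries. The 5 stem cell markers (*Pou5f1*, *Sox2*, *Nanog*, *Zfp42*, *Esrrb*) summed to 2585 and 2601 CPM, 6 endoderm markers to 2.58 and 2.46, and 6 fibroblast markers to 0.802 and 1.05, with *Col3a1* and *Lum* at 0 in both.

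The 9 genes differ first in their promoters. The 250 bases before the annotated start are printed for 4 genes whose level stood far above WT in the other library and, to compare, for a pair of germline genes that were not. They are RefSeq sequences of GRCm38.p6, the build to which the reads were aligned, written 5′ to 3′ on the strand of the gene, with every CpG dinucleotide in capitals. *Xlr3a* (chrX:73097096-73097345, minus strand), *Xlr3c* (chrX:73265391-73265640, minus strand) and *Xlr4a* (chrX:73082508-73082757, minus strand) lie in the *Xlr* cluster of the X chromosome, and *Efhc2* (chrX:17319942-17320191, minus strand) lies elsewhere on it.
Xlr3a: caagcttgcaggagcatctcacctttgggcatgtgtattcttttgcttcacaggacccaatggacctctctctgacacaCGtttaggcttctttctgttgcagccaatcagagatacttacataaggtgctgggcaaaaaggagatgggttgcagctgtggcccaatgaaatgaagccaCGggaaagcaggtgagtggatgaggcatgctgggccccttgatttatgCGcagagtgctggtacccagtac
Xlr3c: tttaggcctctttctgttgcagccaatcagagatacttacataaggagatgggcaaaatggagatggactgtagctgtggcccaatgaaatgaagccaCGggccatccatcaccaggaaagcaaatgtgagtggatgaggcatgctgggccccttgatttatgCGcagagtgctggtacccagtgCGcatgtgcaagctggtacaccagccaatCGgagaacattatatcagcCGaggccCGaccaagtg
Xlr4a: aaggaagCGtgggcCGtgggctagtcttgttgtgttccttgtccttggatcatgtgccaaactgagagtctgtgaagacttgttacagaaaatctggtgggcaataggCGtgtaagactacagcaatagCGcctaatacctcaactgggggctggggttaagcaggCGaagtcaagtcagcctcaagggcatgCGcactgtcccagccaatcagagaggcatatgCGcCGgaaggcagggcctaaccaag
Efhc2: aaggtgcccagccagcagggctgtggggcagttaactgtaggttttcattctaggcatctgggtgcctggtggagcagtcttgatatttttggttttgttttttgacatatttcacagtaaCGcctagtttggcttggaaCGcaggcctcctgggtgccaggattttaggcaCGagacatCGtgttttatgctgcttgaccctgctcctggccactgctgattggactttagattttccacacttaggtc
Over the full window from 250 bases before to 50 bases after the start, *Xlr3a* held 5 CpG, *Xlr3c* 7, *Xlr4a* 8 and *Efhc2* 4. The promoters of *Dazl* (chr17:50293621-50293870, minus strand) and *Mael* (chr1:166238745-166238994, minus strand) are richer in CpG.
Dazl: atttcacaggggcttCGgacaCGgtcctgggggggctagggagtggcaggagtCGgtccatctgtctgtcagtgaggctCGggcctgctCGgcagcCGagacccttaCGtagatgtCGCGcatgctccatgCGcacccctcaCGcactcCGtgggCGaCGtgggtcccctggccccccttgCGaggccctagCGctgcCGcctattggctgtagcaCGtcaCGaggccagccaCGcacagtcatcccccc
Mael: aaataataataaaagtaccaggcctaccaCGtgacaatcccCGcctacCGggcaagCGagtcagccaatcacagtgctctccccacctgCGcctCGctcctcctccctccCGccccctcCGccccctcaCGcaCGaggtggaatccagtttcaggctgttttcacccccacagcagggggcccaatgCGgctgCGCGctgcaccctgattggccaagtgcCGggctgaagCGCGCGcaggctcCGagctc
*Dazl* held 28 CpG in the same window and *Mael* 24. Of the others, *Sycp3* held 15, *Rhox5* 5 and *Khdc3* 0. The RefSeq start lies 573 bases from the GENCODE start for *Efhc2*, 562 bases for *Khdc3* and 50234 bases for *Rhox5*, so the windows of these 3 genes depend on the annotation, whereas the others differ by at most 29 bases. The motif TCCCGC, of the kind E2F6 binds, was searched on both strands and stood once in the window of *Sycp3* and at 2 places in that of *Mael*. CACGTG, the E-box that MAX and MGA bind, reads alike on both strands, does not overlap the first motif, and stood at 2 places in *Sycp3* and once in *Mael*. The windows of the other 7 genes held neither, and among all 32851 promoters listed 19.98% held TCCCGC and 7.15% held CACGTG.

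Between the libraries, the 9 genes fell into 3 groups. The X-linked *Xlr3a*, *Xlr3c*, *Xlr4a* and *Efhc2* exceeded their WT level by 7.68-fold or more in the library labelled S1/5 dKO, *Khdc3* was 1.90-fold and *Rhox5* 1.30-fold higher, and *Dazl*, *Sycp3* and *Mael* were at or somewhat below the WT level. Thus 4 of 9 were at least 2-fold higher and 0 were at least 2-fold lower, where among all 13654 genes with 50 or more UMIs in all 0.872% were at least 2-fold higher and 0.432% at least 2-fold lower. Since this contrast was known when the genes were chosen, nothing is read from the difference between these shares. The median log2 ratio was 0.93 for the 9 genes and −0.01 for all genes.

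**Figure D1:**
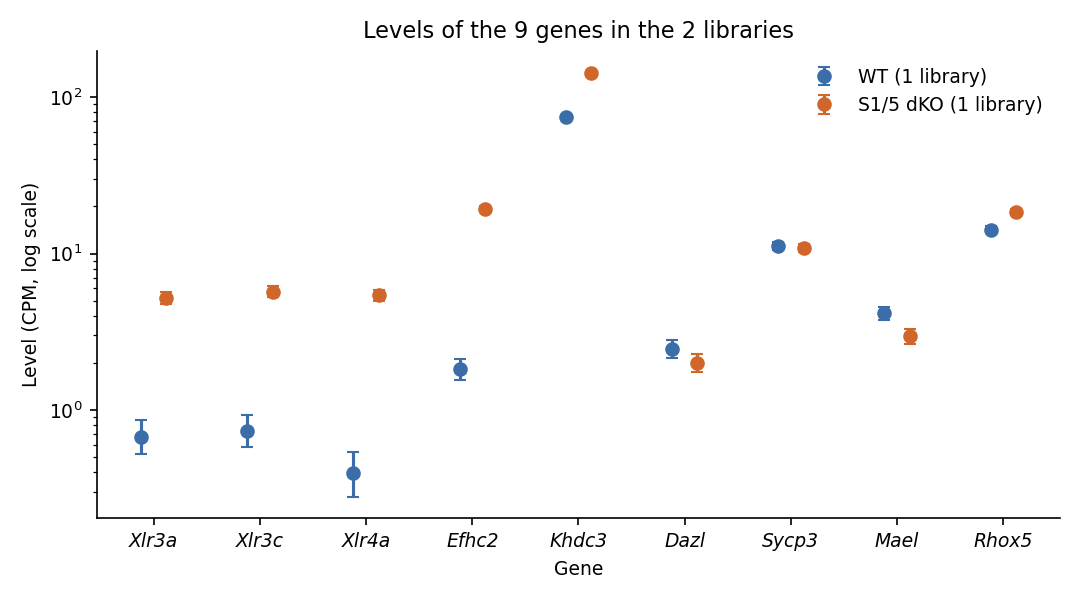
Level of each gene in CPM (log axis) in the WT library and the library labelled S1/5 dKO. Points are sums over all cells of 1 library and bars are exact 95% Poisson intervals. *Xlr3a*, *Xlr3c*, *Xlr4a* and *Efhc2* are far apart between the libraries, whereas *Dazl*, *Sycp3* and *Mael* lie close together.

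The *Xlr* genes (X-linked lymphocyte regulated) code for small nuclear proteins with a domain in common with SYCP3, and are expressed in the germ line and in some brain and immune cells. *Xlr3a* (ENSMUSG00000057836, chrX:73086293-73097095) had 65 UMIs in WT, 0.677 CPM, and 567 in the library labelled S1/5 dKO, 5.20 CPM, a log2 ratio of 2.94 (interval 2.57 to 3.33). *Xlr3c* (ENSMUSG00000058147, chrX:73254540-73265390) had 71 and 622 UMIs, 0.740 and 5.71 CPM, and a log2 ratio of 2.95 (2.59 to 3.32). *Xlr4a* (ENSMUSG00000079845, chrX:73074345-73082478) had 38 and 592 UMIs, 0.396 and 5.43 CPM, and a log2 ratio of 3.78 (3.30 to 4.29). All 3 had few UMIs in WT. They rank 14, 13 and 5 from the highest ratio among the 13654 genes.

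These genes are close copies. Of the 100-base windows in the last 500 transcript bases, where 3′ reads fall, 55.4% of *Xlr3a*, 17.2% of *Xlr3c* and 38.4% of *Xlr4a* were identical in another gene of the family, and 0% in the other 6 genes. A read that fits more than 1 gene is not counted by Cell Ranger, so the levels of single copies are uncertain. The sums of the subfamilies were therefore compared too. The *Xlr3* genes together had 209 UMIs in WT and 1695 in the other library (log2 ratio 2.84, interval 2.63 to 3.05), the *Xlr4* genes 83 and 1098 (3.54, 3.22 to 3.88) and the *Xlr5* genes 11 and 380 (4.93, 4.07 to 5.94). All 9 genes of *Xlr3*, *Xlr4* and *Xlr5* were at least 2-fold higher, with log2 ratios from 2.61 for *Xlr3b* to 5.53 for *Xlr5a*, which had the highest ratio of all 13654 genes on 3 and 157 UMIs. In the annotation *Xlr5a* runs from 73107635 to 73292976 and overlaps other copies. *Xlr*, the gene that gave the family its name and lies outside the cluster, had 10 and 12 UMIs.

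The neighbours of the *Xlr* genes did not share the difference. *F8a*, which lies between the copies and codes for a huntingtin-associated protein, had 345 and 381 UMIs and a log2 ratio of −0.04 (interval −0.25 to 0.17). *Zfp185* at one end had −0.06 and *Zfp275* at the other −0.24. The exception was *Pnma5*, a gene of the paraneoplastic antigen family 45.4 kb from the start of *Xlr4a*, with 27 and 97 UMIs and a log2 ratio of 1.66 (1.03 to 2.33). Over all 464 X-linked genes with at least 50 UMIs the median log2 ratio was −0.03, and over 13158 autosomal genes −0.01.

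**Figure D2:**
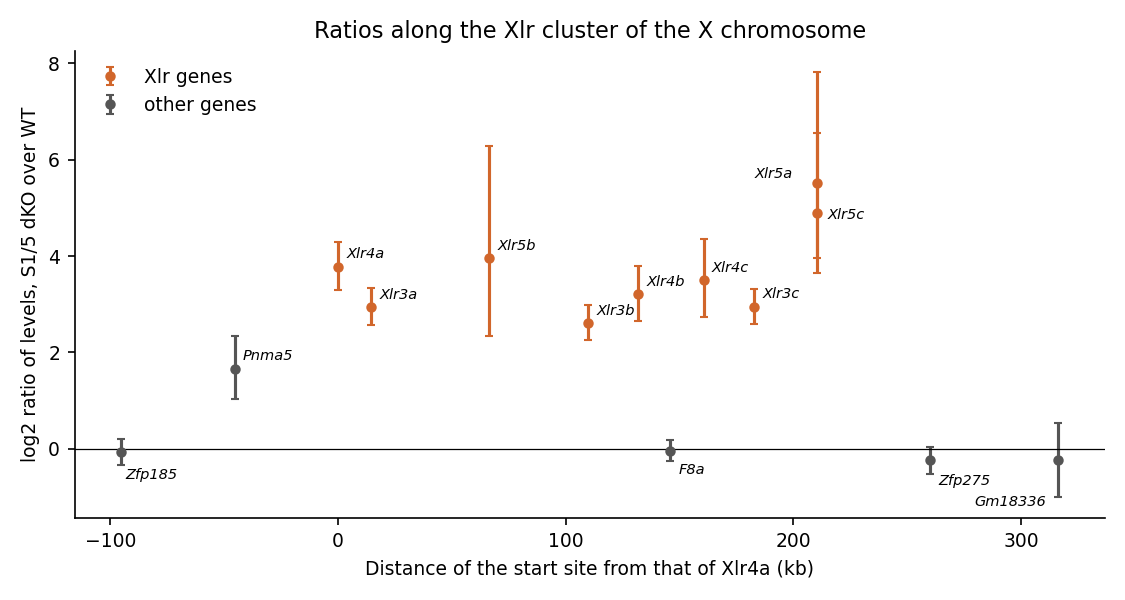
Log2 ratio of levels (library labelled S1/5 dKO over WT) of genes with at least 50 UMIs along the *Xlr* cluster, by the distance of the start from that of *Xlr4a* in kb. Bars are 95% intervals of counting error, and *Xlr5a* and *Xlr5c* share a start in the annotation. All 9 *Xlr* genes lie above 2.6, whereas *F8a* between them lies at −0.04.

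*Efhc2* (ENSMUSG00000025038, chrX:17132049-17319368) codes for an EF-hand protein of ciliary microtubules. It had 175 UMIs in WT, 1.82 CPM, and 2086 in the library labelled S1/5 dKO, 19.13 CPM, which gives a log2 ratio of 3.39 (interval 3.17 to 3.62) and rank 8 of 13654. It is the most reliable of the large differences, since it has the most UMIs and no copy. No other gene with at least 50 UMIs starts within 200 kb of it.

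*Khdc3* (ENSMUSG00000092622, chr9:73101836-73104438, also called Filia) codes for a KH-domain protein of the subcortical maternal complex of oocytes, which in mESCs takes part in the response to DNA damage. It had 7164 UMIs in WT, 74.7 CPM, and 15493 in the library labelled S1/5 dKO, 142 CPM, a log2 ratio of 0.93 (interval 0.89 to 0.97). It thus falls just short of 2-fold, at rank 144. Of 8 listed genes of the maternal complex and genes near it in function, 4 had at least 50 UMIs (*Ooep*, *Tle6*, *Zbed3* and *Dppa5a*). Their log2 ratios ran from −0.11 to 0.29, closer to the WT level. The complex genes *Nlrp5* (1 and 5 UMIs) and *Padi6* (5 and 5) had too few UMIs to compare.

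*Dazl*, *Sycp3* and *Mael* are textbook germ cell genes. *Dazl* (ENSMUSG00000010592, chr17:50279395-50293636), an RNA-binding protein needed for germ cell development, had 236 UMIs in WT, 2.46 CPM, and 219 in the library labelled S1/5 dKO, 2.01 CPM (log2 ratio −0.29, interval −0.56 to −0.02). *Sycp3* (ENSMUSG00000020059, chr10:88459569-88473236), a protein of the axes of meiotic chromosomes, had 1071 and 1188 UMIs, 11.2 and 10.9 CPM (−0.03, −0.15 to 0.09). *Mael* (ENSMUSG00000040629, chr1:166201201-166238747), which acts in the piRNA pathway that silences transposons, had 399 and 324 UMIs, 4.16 and 2.97 CPM (−0.48, −0.70 to −0.27). For *Dazl* the interval only just leaves out 0, for *Sycp3* it holds 0 and allows at most a 1.06-fold higher level, and for *Mael* it lies below 0. *Rftn1*, which codes for a lipid raft protein and starts 103 kb from *Dazl*, was 1 of 25 neighbours outside the *Xlr* family and the single one at least 2-fold lower (61 and 26 UMIs, log2 ratio −1.41).

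*Rhox5* (ENSMUSG00000095180, chrX:37804842-37808876, also called Pem) is a homeobox gene of the X-linked *Rhox* cluster, expressed in placenta and testis. It had 1362 UMIs in WT, 14.2 CPM, and 2005 in the library labelled S1/5 dKO, 18.4 CPM, a log2 ratio of 0.37 (interval 0.27 to 0.47). Most of these UMIs came from few cells, as described further on, and without the cells with at least 10 *Rhox5* UMIs the log2 ratio was 0.08. Of the 6 *Rhox* genes with at least 50 UMIs, 0 were at least 2-fold apart, and the widest ratio was that of *Rhox9* (87 and 188 UMIs, 0.93).

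Further genes show how far these differences reach. Of 40 other germline genes, listed as genes with CpG-rich promoters, 38 were detected and 33 had at least 50 UMIs. None of the 33 was at least 2-fold apart, and their log2 ratios ran from −0.90 for *Tex101*, a sperm surface protein, to 0.68 for *Rpl10l*, a ribosomal protein of the testis, with a median of −0.10. The 25 genes of DNA methylation and germline gene silencing, among them *Dnmt1*, *Uhrf1*, *Setdb1*, *Pcgf6* and *E2f6*, lay between −0.25 and 0.22. Of 8 markers of cells that resemble the 2-cell embryo, 3 had at least 50 UMIs, and only *Tcstv3* was at least 2-fold apart (14 and 177 UMIs, log2 ratio 3.48). Of those below 50 UMIs, *Zfp352* (10 and 3) and *Usp17lc* (23 and 10) were lower. *Zscan4f* (2 and 3), *Tcstv1* (0 and 3) and *Tmem92* (10 and 13) were not. The list summed to 2.08 and 4.48 CPM, and in the library labelled S1/5 dKO 4 cells without *Mest* held 299 of its UMIs, up to 169 in a cell. Leaving out cells with at least 10 UMIs of these markers left the count of 4 genes as it was.

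Set against the promoters, the 6 genes above the WT level held 0 to 8 CpG and the 3 at or below it held 15 to 28. This is a description of 9 chosen genes. Of the 40 further germline genes 35 had a promoter in the table, with a median of 18 CpG, and 4 of them held under 10. Among these, *Tex19.2* held 2, *Dnmt3l* 6 and *Cyct* 8, with log2 ratios of −0.42, −0.08 and 0.11. The 9 genes of *Xlr3*, *Xlr4* and *Xlr5* held 1 to 16 with a median of 7. *Xlr5a* and *Xlr5b* held 16 each, more than *Sycp3*, yet had log2 ratios of 5.53 and 3.96. The split therefore did not hold beyond the 9 genes. A comparison with all genes was void, since only 10623 of 13640 genes with at least 50 UMIs and a symbol of their own, and 77 of the 119 at least 2-fold higher, had a promoter in the table.

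**Figure D3:**
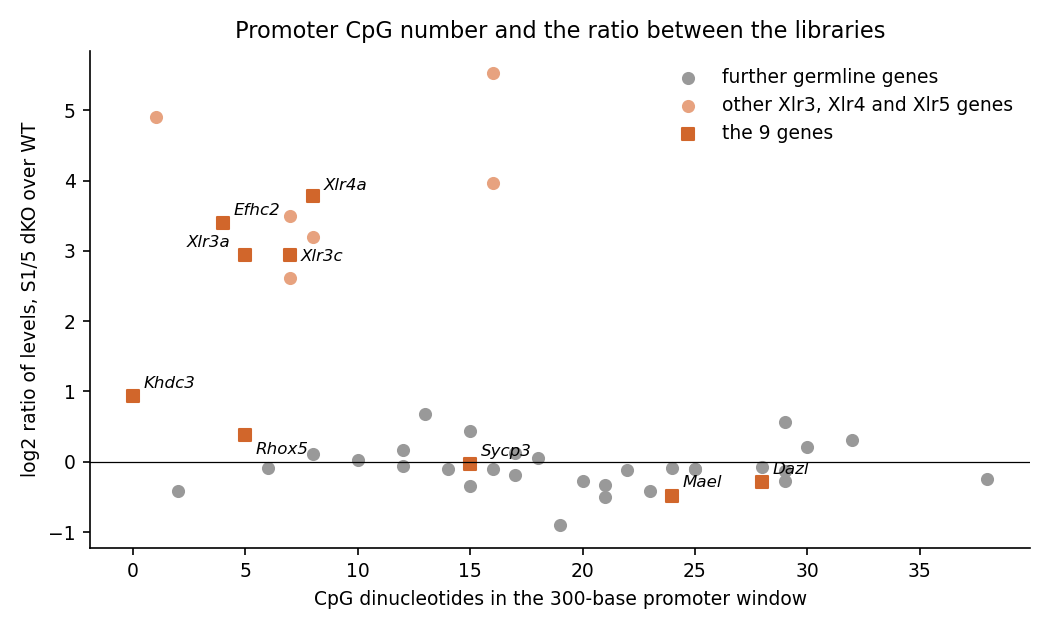
Log2 ratio of levels (library labelled S1/5 dKO over WT) against the number of CpG dinucleotides in the 300-base promoter window, for the 9 genes, the other *Xlr3*, *Xlr4* and *Xlr5* genes and the further germline genes with at least 50 UMIs. Every gene with a log2 ratio above 2 is an *Xlr* gene or *Efhc2*, and *Dazl*, *Sycp3* and *Mael* lie near 0 with 15 or more CpG. *Xlr5a* and *Xlr5b* hold 16 CpG and lie at 5.53 and 3.96.

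How the UMIs were spread over cells differed among the genes. *Xlr3a* was detected in 2.24% of WT cells and 13.8% of those labelled S1/5 dKO, *Xlr4a* in 1.39% and 13.7%, and *Efhc2* in 5.01% and 42.5%. After each cell was thinned to 10000 UMIs, which left out 43 WT cells and 67 cells of the other library, the shares of *Xlr3a* were 0.547% (interval 0.283 to 0.954) and 4.82% (4.06 to 5.67), and those of *Efhc2* were 1.73% (1.23 to 2.37) and 16.3% (15.0 to 17.7). The thinned shares of *Xlr3c* were 0.912% and 4.43%, and those of *Xlr4a* 0.365% and 4.89%. All 4 genes were thus found in more cells. The largest number of UMIs in a cell was 5 for *Xlr3a* in both libraries, 5 and 6 for *Efhc2*, 3 and 7 for *Xlr4a* and 6 and 14 for *Xlr3c*. The mean over cells with the gene went from 1.42 to 2.13 UMIs for *Xlr3c*, and 30 cells labelled S1/5 dKO held 27.8% of its UMIs. If every cell had the same level per UMI, a Poisson distribution would put *Efhc2* in 7.47% of WT cells and 49.03% of the others, against the 5.01% and 42.5% observed. *Xlr3c* came out furthest below among the *Xlr* genes, in 10.0% of cells labelled S1/5 dKO against 18.9%.

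*Dazl*, *Sycp3* and *Mael* came out somewhat below an even spread. *Dazl* was in 8.36% of WT cells against 9.91% under the Poisson distribution, *Sycp3* in 33.6% against 36.6% and *Mael* in 14.5% against 16.1%. In the other library they were 6.56% against 7.2%, 30.5% against 32.5% and 9.38% against 10.4%. In proportion, *Dazl* in WT fell short about as far as *Xlr4a* in WT, at 1.39% against 1.68%. After thinning, *Dazl* was in 2.05% and 1.90% of cells, *Sycp3* in 9.94% and 11.0%, and *Mael* in 3.83% and 2.78%.

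*Khdc3* was uneven in both libraries. It was found in 66.7% of WT cells where an even level would give 91.8%, and in 76.5% of the others where it would give 97.3%. Cells with at least 10 *Khdc3* UMIs numbered 186 in WT, or 8.32% of cells with 43.1% of its UMIs, and 505 in the library labelled S1/5 dKO, or 17.4% of cells with 60.9%. The thinned shares of cells were 37.4% and 53.1%.

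*Rhox5* lay furthest of the 9 from an even level. It was found in 10.9% of WT cells and 9.52% of the others, where an even level would give 43.6% and 47.7%. In WT 30 cells with at least 10 UMIs, up to 74 in a cell, held 74.4% of its UMIs, and in the library labelled S1/5 dKO 52 such cells, up to 71 in a cell, held 79.2%. Their depth was ordinary, with medians of 40796.5 and 35184.5 UMIs, and *Pou5f1* was at 1182 and 1161 CPM in them, against 1321 and 1302 in cells without *Rhox5*. *Rhox6*, its neighbour, was at 15.4 CPM (interval 9.66 to 23.3) in the 30 WT cells against 1.51 (1.26 to 1.80) in cells without *Rhox5*, and at 37.9 (29.8 to 47.6) against 1.33 (1.11 to 1.58) in the other library. *Rhox9* was at 3.50 (1.14 to 8.18) against 0.763 (0.587 to 0.974) in WT and at 30.8 (23.5 to 39.6) against 0.828 (0.657 to 1.03) in the library labelled S1/5 dKO. *Dppa3*, a marker of naive and primordial germ cells, was chosen after its values were seen. It was at 21.0 (14.2 to 30.02) against 1.85 (1.57 to 2.16) in WT and 57.4 (47.3 to 69.1) against 2.94 (2.61 to 3.30) in the other library. Its UMIs came from 7 cells in WT and 26 cells labelled S1/5 dKO. Of a list of 7 primordial germ cell genes only *Dppa3* was read in these cells, so a germ cell state was not tested. *Nanog* was at 143 and 103 CPM in them, against 139 and 144 in cells without *Rhox5*. *Zfp42* was at 755 and 768, against 852 and 884. Of the 4 genes that differed most between the libraries, *Xlr3a* and *Efhc2* had 1 UMI each in the 30 WT cells and *Xlr3c* and *Xlr4a* 0 (interval up to 2.59 CPM). These intervals hold the WT level of each gene, so the counts show no absence. In the 52 cells labelled S1/5 dKO the UMIs were 7 for *Xlr3a*, 9 for *Xlr3c*, 9 for *Xlr4a* and 35 for *Efhc2*.

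**Figure D4:**
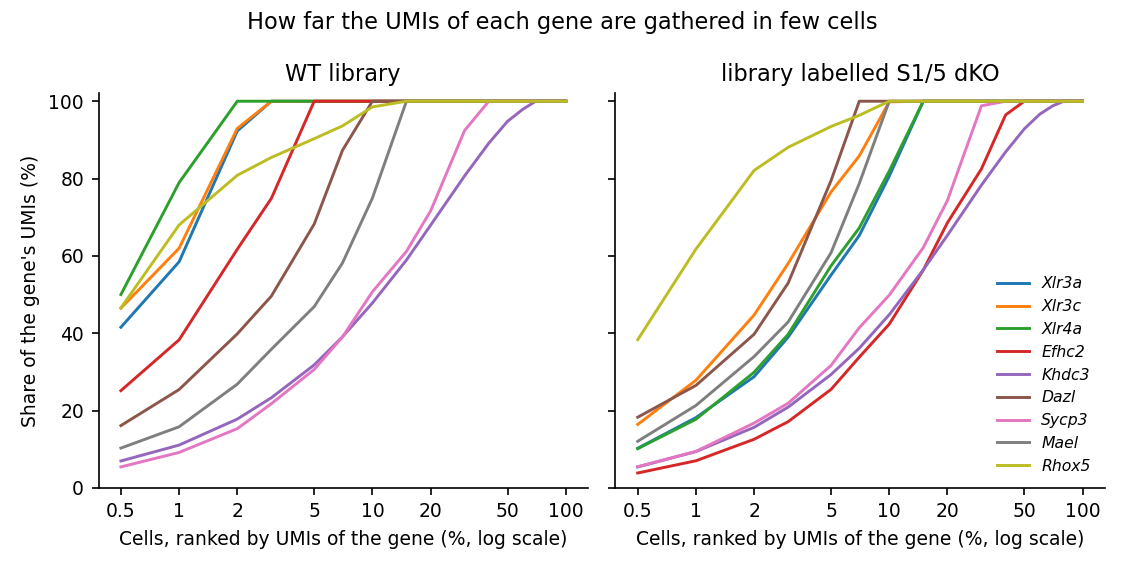
Share of the UMIs of each gene (%) held by the cells with most UMIs of that gene (% of cells, log axis), in the WT library and the library labelled S1/5 dKO. *Rhox5* is gathered in few cells in both libraries, and the curves of the *Xlr* genes and *Efhc2* move to the right in the library labelled S1/5 dKO, where more cells have them. A gene found in few cells reaches 100% early for that reason alone.

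Free RNA in the suspension can place UMIs in cells that do not make them. Barcodes with 10 to 100 UMIs, taken as empty, had *Xlr3a* at 0.567 CPM in WT, from 1 UMI, and at 5.11 in the other library, from 10 UMIs. *Khdc3* was there at 68.6 and 103, against 74.7 and 142 in cells, and *Rhox5* at 9.64 and 11.7, against 14.2 and 18.4. *Efhc2* was at 0.567, from 1 UMI, and 18.4, and *Xlr3c* and *Xlr4a* had 0 UMIs there in WT. No cell type in these cultures is known to lack the genes, and the part of free RNA in the shares of cells was not tested.

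Within single cells, *Xlr* genes were found together more often than the product of their shares gives, whereas the other pairs summed close to it after thinning. In the library labelled S1/5 dKO, after thinning, *Xlr3a* and *Xlr3c* were both found in 20 cells where the product of their shares gives 6.07, *Xlr3a* and *Xlr4a* in 21 against 6.70, and *Xlr3c* and *Xlr4a* in 23 against 6.16. Summed over the 3 pairs this was 64 against 18.9, and Spearman's rho over 2843 cells ran from 0.11 to 0.13. In WT the same pairs summed to 3 cells against 0.226. Reads of near-identical copies bear on these pairs, and their part was not tested. *Xlr* genes with *Efhc2* gave 77 against 65.6 in the library labelled S1/5 dKO, and in WT 0 against 0.693, too few to read. In WT cells that were not thinned, an *Xlr* gene and *Efhc2* were found together in 16 cells against 5.41. All 33 pairs other than these 3, among them those of an *Xlr* gene with another gene, gave 1092 against 1059. In WT they gave 255 against 245. Most of this came from pairs with *Khdc3*, which gave 792 against 774 and, in WT, 207 against 198, so these sums say little of the rest.

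Counted over all 9 genes, a thinned cell had on average 0.615 of them in WT and 1.04 in the other library. At least 3 were found in 18 WT cells where independent genes would give 17.6, and in 177 cells of the other library where they would give 142. Outside the 9, the genes whose level followed this number most closely across the 2843 cells were *Rpl39l*, a ribosomal protein variant of the testis (rho 0.15), *Eif2s2*, a subunit of a translation initiation factor (0.14), *Gabarapl2*, a gene of autophagy (0.11), *Xlr4b* (0.11) and *Igfbp2*, which binds insulin-like growth factors (0.11). *Khdc3*, found in the most cells, weighs most in this number, and the rho with *Khdc3* alone was higher for *Rpl39l* (0.17), *Eif2s2* (0.26), *Gabarapl2* (0.26) and *Igfbp2* (0.20). These are weak correlations in sparse counts.

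The WT cells were then divided by *Mest*, a paternally expressed imprinted gene that was at 11.3 CPM in WT and at 93.6 CPM in the other library. At least 2 *Mest* UMIs were found in 213 WT cells (9.53%), 1 in 37 cells and 0 in 1986 cells. The division was made on the same cells, so its values are a description too. The same 4 X-linked genes were higher in WT cells with *Mest*: *Xlr3a*, *Xlr3c* and *Efhc2* by 14.7-fold, 8.77-fold and 4.03-fold, and *Xlr4a*, with 36 UMIs in both groups together, by 42.6-fold. *Dazl* was 2.04-fold higher, *Khdc3*, *Sycp3* and *Mael* lay within 1.19-fold, and *Rhox5* was lower.

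*Xlr3a* had 38 UMIs, 3.83 CPM, in the 213 cells and 22 UMIs, 0.261 CPM, in the 1986 cells, a log2 ratio of 3.88 (interval 3.08 to 4.71). *Xlr3c* had 34 and 33 UMIs, 3.43 and 0.391 CPM (3.13, 2.398 to 3.87), and *Xlr4a* 30 and 6 UMIs, 3.03 and 0.0711 CPM (5.41, 4.12 to 6.97). *Efhc2* had 55 and 116 UMIs, 5.55 and 1.38 CPM (2.01, 1.52 to 2.49). So over the 4 genes the cells with *Mest*, 10.3% of the UMIs of the library, held from 31.4% to 78.9% of the UMIs. In cells with exactly 1 *Mest* UMI the levels were 2.95 for *Xlr3a*, 2.36 for *Xlr3c*, 1.18 for *Xlr4a* and 2.36 for *Efhc2*, from 2 to 5 UMIs each. The whole of *Xlr3*, *Xlr4* and *Xlr5* was at 1.30 CPM with 0 *Mest* UMIs, 14.8 with 1, 15.8 with 2 to 4 and 18.0 with 5 or more.

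**Figure D5:**
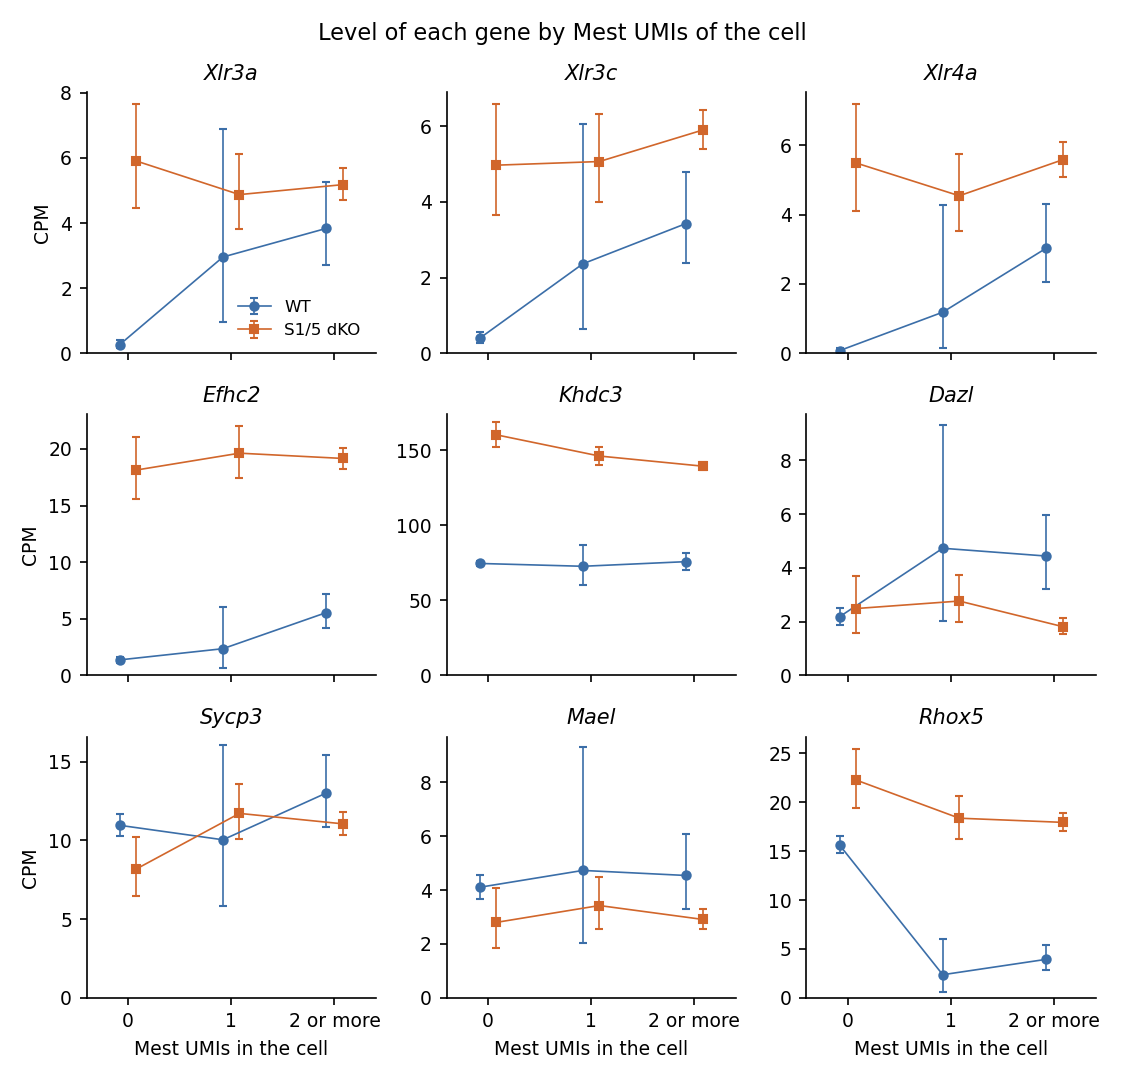
Level of each gene (CPM) in cells with 0, 1 and 2 or more *Mest* UMIs, in the WT library and the library labelled S1/5 dKO. Points are sums over the cells of a class and bars are exact 95% Poisson intervals. In WT, *Xlr3a*, *Xlr3c*, *Xlr4a* and *Efhc2* are lowest in cells without *Mest*, and in the library labelled S1/5 dKO they lie at about the same level in all 3 classes.

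Of the 8 genes with at least 50 UMIs in this division, 4 were at least 2-fold higher and 1 lower, where among 12392 genes 0.533% were at least 2-fold higher and 1.11% lower. *Dazl*, with 44 and 184 UMIs, 4.44 and 2.18 CPM, was only just past 2-fold (log2 ratio 1.03, interval 0.52 to 1.51), and it fell to 0.79 in thinned cells and 0.96 without the cells of highest depth. *Khdc3* was at 75.8 and 74.6 CPM (0.02, −0.09 to 0.13), *Sycp3* at 13.0 and 11.0 (0.25, −0.03 to 0.51) and *Mael* at 4.54 and 4.10 (0.15, −0.34 to 0.60). For these 3 genes the interval holds 0. *Rhox5* was at 3.93 and 15.6 CPM (−1.99, −2.49 to −1.53), which rests on the 30 cells with at least 10 UMIs: all of them had 0 *Mest* UMIs, and without them the log2 ratio was 0.10.

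Seen from the other side, 54 of the 108 WT cells with a UMI of *Xlr3a*, *Xlr3c* or *Xlr4a* had *Mest* (50%, interval 40.2 to 59.8), against 9.21% (8.02 to 10.5) of the 2128 cells without. Of the 33 cells with at least 2 such UMIs 27 had *Mest* (81.8%, 64.5 to 93.0), and of the 112 cells with *Efhc2* 40 had it (35.7%, 26.9 to 45.3). The median depth was 43597 UMIs in the 108 cells and 38472 in those without, and 41157 against 38452.5 in cells with at least 2 and with 0 *Mest* UMIs. Among the 213 cells, an *Xlr* gene and *Efhc2* were found together in 8, where the product of the shares gives 8.38. Among the 1986 cells with 0 *Mest* UMIs they were found together in 7, where it gives 1.958, and among all WT cells in 16, where it gives 5.41.

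In the library labelled S1/5 dKO the same division left the 9 genes within 2-fold. There 2074 cells had at least 2 *Mest* UMIs and 362 had 0. *Mest* was found in 87.6% of these cells, where an even level would give 93.3%, against 11.2% and 37.0% in WT. Many of the 362 cells are thus expected from counting alone, so the contrast is weaker than in WT. Of the 9 genes 0 were at least 2-fold higher and 0 lower, where 1.51% of 12375 genes were higher and 0.436% lower, so the count of 0 says little. *Xlr3a* was at 5.18 and 5.91 CPM (log2 ratio −0.19, interval −0.59 to 0.23), *Xlr4a* at 5.58 and 5.49 (0.02, −0.39 to 0.46) and *Efhc2* at 19.16 and 18.1 (0.08, −0.15 to 0.31). The log2 ratios of the other 6 genes ran from −0.45 for *Dazl* to 0.43 for *Sycp3*. Depth differed here, with medians of 37046 and 27756.5 UMIs.

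The highest log2 ratios in WT cells with *Mest*, among 9978 genes with at least 200 UMIs, were those of the imprinted gene *Nnat* (log2 ratio 3.15), *Zfp951* (1.68), *Fkbp6* of the piRNA pathway (1.66), *Slc9a3r2*, a scaffold protein (1.5), and *Aass*, an enzyme of lysine breakdown (1.20). Of the further germline genes 31 had at least 50 UMIs, of which *Fkbp6* and *Smc1b*, a meiotic cohesin (1.15), were at least 2-fold higher and *Meioc* (−1.01) and *Prss50* (−1.16) at least 2-fold lower. The median of the 31 was 0.22, and of all genes −0.01.

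Other differences of the library labelled S1/5 dKO were not carried by these WT cells as a whole. *Id1*, a target of BMP signals, was at 348 CPM in WT cells with at least 2 *Mest* UMIs, 318 in those with 0 and 161 in the library labelled S1/5 dKO. *Id2* was at 54.8, 57.3 and 16.8, and *Id3* at 106, 103 and 61.5. The 147 genes of chromosome 8 from *Borcs8* to *Smad1* summed to 11488 and 11353 in the WT classes and to 7862 in cells labelled S1/5 dKO with at least 2 *Mest* UMIs. In contrast, the imprinted genes *Nnat* at 14.6, 1.65 and 24.9, *Impact* at 68.8, 43.0 and 88.6 and *Grb10* at 7.36, 21.1 and 2.19 lay between, as did *Xlr3a* at 3.83, 0.261 and 5.20 and *Efhc2* at 5.55, 1.38 and 19.13. *Xlr3c* (3.43, 0.391 and 5.71) and *Xlr4a* (3.03, 0.0711 and 5.43) lay between too. *Khdc3*, at 75.8, 74.6 and 142, stayed near the level of WT cells with 0 *Mest* UMIs, and *Rhox5*, at 3.93, 15.6 and 18.4, lay below both.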

How the data were processed

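Single-cell RNA was measured with the Chromium 3′ v3 kit in 1 WT library and 1 library labelled S1/5 dKO. The authors aligned reads to mm10 with Cell Ranger 3.0.2, per the labels, and deposited raw UMI counts per gene and barcode, with no normalization and for all barcodes of the kit. From these, counts were summed over cells and divided by the total, and ratios were given conditional binomial intervals (level 95%). Cells with under 10000 UMIs were left out of thinned values (seed 1), and no doublets were removed. Genes entered a count of 2-fold differences with at least 50 UMIs. Positions and transcripts were those of GENCODE vM21, in which 30934 identifiers were found, and promoters those of RefSeq. Python 3.11.15, numpy 2.4.6, scipy 1.17.1, pandas 2.3.3, matplotlib 3.10.9 and, for TMM factors, edgeR 4.0.16 on R 4.3.3 were used, and the ratio, its interval and the thinning were tested on simulated data. The 9 genes, the lists, the division by *Mest* and the alternatives were chosen with earlier results of these data known. Genes named beyond the 9 are list genes and neighbours at least 2-fold apart, the 5 genes most like the number of genes detected and the 5 highest in the *Mest* division. Others are extremes or members of a family or list and were named after their values were seen. Intervals cover counting error only.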

Additional observations from a re-analysis of the deposited data

Results flagged for a closer look

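The log2 ratios of 3 genes between cells with at least 2 and with 0 *Mest* UMIs had opposite signs in the libraries. For each gene the interval holds 0 in 1 library, so no opposite direction is shown. None of these differences was tested, since each condition has 1 library. *Xlr3a* had a log2 ratio of 3.88 for WT against −0.19 in the library labelled S1/5 dKO, where the interval holds 0. *Dazl* had 1.03 in WT and −0.45, where the interval also holds 0. *Khdc3* had 0.02 in WT, with an interval that holds 0, and −0.20 (interval −0.28 to −0.12) in the library labelled S1/5 dKO, where depth also differed between the classes. In that library many cells with 0 *Mest* UMIs are expected from counting alone, so the classes are not alike in the libraries.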

How the results depend on the processing

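No paired analysis was possible because each condition has 1 library, and for the same reason no replicate could be left out. Between the libraries, 85 of 90 ratios stayed within the interval of the value given and the count of 4 genes at least 2-fold apart was the same under all 12 alternatives. The others were *Khdc3* at 0.98 without cells of over 2 times the median UMIs and 0.98 in thinned cells, *Xlr3c* at 2.33 and *Sycp3* at 0.14 in thinned cells, and *Rhox5* at 0.081 without the cells with at least 10 *Rhox5* UMIs, an alternative added after seeing the data. In the *Mest* division 121 of 126 did, the others being *Xlr3a* at 4.78 and *Efhc2* at 2.76 in thinned cells, *Xlr3a* at 2.95 with *Mest* counted after thinning, *Khdc3* at −0.22 for at least 5 *Mest* UMIs, and *Rhox5*, which turned to 0.10 without its 30 highest cells. The 5 genes at least 2-fold apart there became 3 without cells of high depth, 1 in thinned cells, 3 for at least 5 *Mest* UMIs, 2 in cells of 20000 to 60000 UMIs and 2 with a minimum of 200 UMIs, under which 7, 4, 7, 6 and 5 of the 9 genes passed the minimum. Over all genes, 178 were at least 2-fold apart between the libraries, 402 with a minimum of 20 UMIs and 61 with 200, and 203, 678 and 24 in the *Mest* division. For the shares of cells, the log2 ratio of the shares of *Xlr3a* was 3.14 at 10000 UMIs and 5.48 at 5000, where 0.0452% of WT cells had it, that of *Khdc3* 0.51, 0.65 at 5000 and 0.20 unthinned, and that of *Sycp3* 0.14, −0.11 and −0.14. TMM and median-of-ratios factors moved no ratio beyond its interval. Depth limits *Xlr4a* most in the *Mest* division, where 36 UMIs give an interval from 4.12 to 6.97.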
